A study of Mus musculus with 16 samples.

Results

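The T cell receptor signalling machinery is the set of receptor chains, kinases, adaptors, inhibitors and branch-point enzymes that carries an antigen signal from the surface of a T cell to its nucleus. A list of 40 genes was followed, and 38 of them were measured among the 17097 genes of the table, each by the probe set naming that gene alone with the highest mean over the 16 arrays. Lck and Csk were not analysed here. The 38 genes comprised 7 receptor chains and coreceptors, 3 proximal kinases, 9 adaptors and proximal effectors, 11 inhibitors and phosphatases, 3 genes of the PKC-theta and NF-kB branch, 2 of the Ras branch and 3 of the NFAT branch.

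RNA came from naive T cells of C57BL/6 background mice and fell into 6 groups. CD4 cells that were wild-type or Tsc1-deficient were measured at 0 h, without stimulation, and after 4 h on plate-bound antibodies to CD3 and CD28, with 3 arrays in each of the 4 groups. Unstimulated CD8 cells of both genotypes were measured with 2 arrays in each group. Tsc1 is a subunit of the complex that restrains the growth-promoting kinase mTORC1, and the comparisons ask how its loss alters resting and newly stimulated T cells. The labels used here name neither the driver of the deletion nor the age of the mice. One sentence of the treatment text names HIF1a-deficient mice. The titles and genotype entries of the deficient samples name Tsc1 instead, and these were followed. Nothing in the labels states whether replicate arrays came from separate mice, so p-values measure only how much these arrays vary, and that variation may be technical.

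When a T cell receptor is engaged, the kinases Lck and Fyn phosphorylate the tails of the CD3 and zeta chains, Zap70 binds there, and Zap70 then phosphorylates the adaptors Lat and Lcp2 (SLP-76). The complex built on them activates phospholipase C-gamma, whose products feed calcium and NFAT on one side and PKC-theta, NF-kB and Ras on the other. Phosphatases such as Ptpn6 (SHP-1) and Ptpn22, membrane proteins such as Cd5, Cd6, Sit1 and Pag1, and the diacylglycerol kinases Dgka and Dgkz restrain these steps. A change of a transcript need not be a change of its protein or of signalling, neither of which was measured.

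Values are log2 signals, so that 1 unit is a 2-fold difference. A change is a difference of group means with its standard error (±). Adjusted p-values are from limma, a linear model fitted to all 16 arrays, with Benjamini-Hochberg adjustment over the 17097 genes of a comparison, and a gene counts as higher or lower where its adjusted p is under 0.05. The number of arrays limits the precision. Levels are not compared between genes, since probe sets differ in how brightly they hybridise.

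The labels were checked first. Tsc1 read 7.25, 7.39 and 7.29 in unstimulated wild-type CD4 cells and between 6.42 and 6.54 in deficient ones, without overlap, and its change was -0.83 ± 0.09 there, -1.06 ± 0.09 after stimulation and -0.55 ± 0.12 in CD8 cells (adjusted p = 3.77e-05, 4.63e-06 and 0.00892). The last of these had an adjusted p of 0.109 without wild-type CD8 replicate 1. These values are from the brightest of its 3 probe sets; the next gave -0.13, -0.21 and 0.10 in the same comparisons and the dimmest -0.19, 0.03 and 0.08 (adjusted p over all probe sets between 0.576 and 0.956). Cd4 and Cd8a separated the lineages by 4.18 units or more in either genotype. Replicate arrays correlated at 0.990 to 0.996. The Gapdh controls, whose 3′ and 5′ signals drift apart when RNA is degraded, were 0.96 apart on replicate 1 of the stimulated deficient CD4 cells and 0.64 apart on replicate 2 of the deficient CD8 cells; elsewhere, over 14 arrays, they were 0.0241 to 0.404 apart. Neutrophil markers were higher in deficient CD4 cells: all 8 measured lay above 0 in the genotype comparison at both times, with 1 called at 0 h and 4 at 4 h, among them S100a8 at 3.11 ± 0.64 (adjusted p = 0.00471). Their average signal, as the log2 of the mean linear signal over the 8 markers on each array, was 3.31 to 4.10 in stimulated wild-type and 5.49 to 7.23 in stimulated deficient cells. In CD8 cells, where 7 of the 8 lay above 0 and S100a8 was at 1.90 ± 0.78 (adjusted p = 0.186), it was 3.83 to 5.34 in wild-type and 5.67 to 6.81 in deficient cells. In each deficient group 7 of the 8 had a mean above the table median of 3.36, all but Elane. Of the other lists, 3 of 8 myeloid, 2 of 5 regulatory T cell, 1 of 6 NK cell and 1 of 6 B cell markers were higher in stimulated deficient cells. At rest the NK cell markers Klrd1 (1.42 ± 0.11) and Gzma (1.19 ± 0.31) were higher in deficient CD4 cells and Prf1 (-0.85) lower, and the B cell marker Cd79b was higher in deficient CD4 (0.63) and CD8 cells (0.99), where Gzma was too (1.36). The part of the marker signal in the results was not tested.

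**Figure D1:**
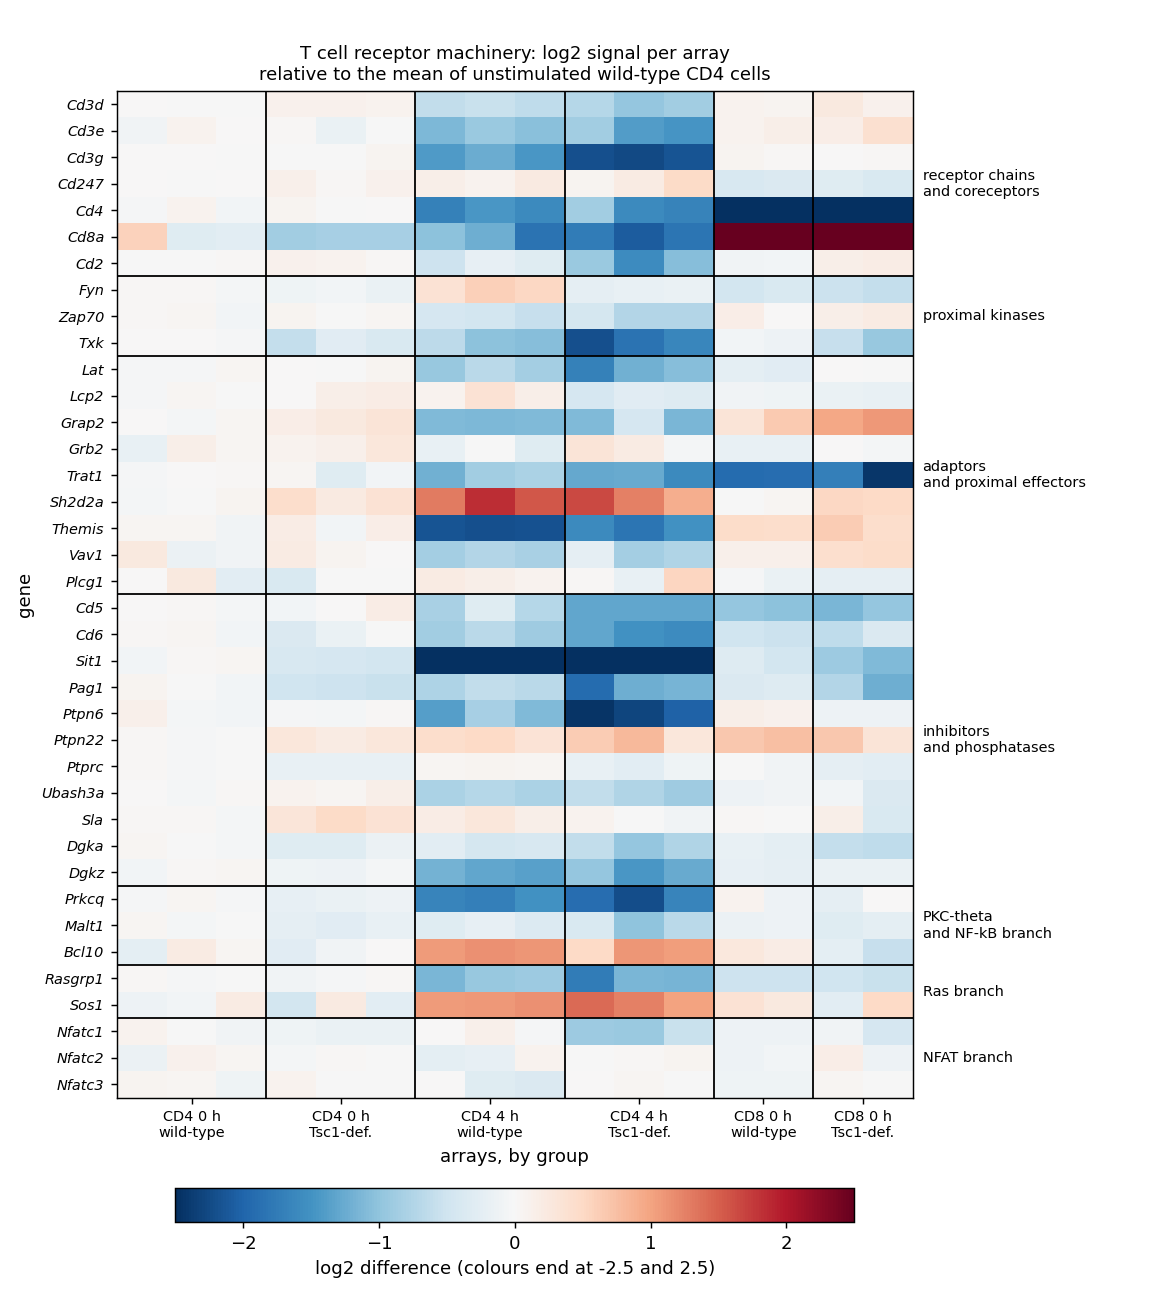
Log2 signal of each of the 38 measured members (rows, grouped by role) on each of the 16 arrays (columns, grouped by cell type, time and genotype), as the difference from the mean of unstimulated wild-type CD4 cells (colour). The stimulated columns are lower for most members, Sit1 most of all (-3.57 in wild-type cells), whereas Sh2d2a, Bcl10 and Sos1 are higher there.

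In wild-type CD4 cells, 4 h of stimulation lowered much of the machinery: 22 of the 38 members fell and 5 rose, while 19.1% of all genes fell, 12.8% rose and 31.9% changed in either direction. The median member change was -0.60, and 33 members had arrays that did not overlap between the times, against 45.3% of all genes. All 38 members had a mean above the table median, as did 54.7% of all genes, and 54.0% of the 9354 genes above that median changed. Because the values come from bulk RNA, fewer cells of a type and less RNA per cell cannot be told apart.

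Among the receptor chains, the CD3 components fell by unequal amounts. Cd3g, the gamma chain, read 11.75 on each of the 3 unstimulated wild-type arrays and 10.33, 10.52 and 10.29 after stimulation, a change of -1.37 ± 0.08 (adjusted p = 1.62e-09). Cd3e, the epsilon chain, fell by 1.03 and Cd3d, the delta chain, by 0.60. Cd247, the zeta chain that carries most of the signalling motifs, did not pass the test, at 0.15 ± 0.10 (adjusted p = 0.299). Its dimmer probe sets differed from this one: one of its 4 gave -1.08 in the same comparison and their average -0.14 (and -0.44, against 0.10, for genotype after stimulation), so the zeta chain is uncertain. The coreceptor Cd4 fell from 8.92, 9.04 and 8.89 to 7.25, 7.50 and 7.36, without overlap. Cd8a also fell, from 6.99, 6.11 and 6.16 to 5.39, 5.19 and 4.57, at a level far below the 11.34 and 11.68 of wild-type CD8 cells.

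Of the proximal kinases, Txk, a Tec family kinase, fell by 0.92 and Zap70 fell by 0.49. Fyn, a Src family kinase, moved the other way and rose by 0.49 ± 0.09 (adjusted p = 0.000209), its stimulated arrays at 10.72, 10.95 and 10.89 all above the unstimulated ones at 10.39, 10.39 and 10.31. The adaptors split similarly. Themis, which acts in thymocyte selection, fell from 9.07, 9.07 and 8.95 to 6.87, 6.82 and 6.86, a 4.53-fold decrease. Grap2 (Gads), which links Lat to Lcp2, fell by 1.11, Trat1 by 0.95, Lat by 0.83 and the guanine nucleotide exchange factor Vav1 by 0.80. Sh2d2a, the T cell specific adaptor that binds Lck, rose from 7.34, 7.38 and 7.46 to 8.69, 9.23 and 8.94. Grb2, Lcp2 and Plcg1 did not pass the test, and Plcg1, at a mean of 3.77, lay close to the dim end where a change is hard to see.

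Sit1, a transmembrane adaptor that binds SHP-2 and restrains signalling, changed more than any other member. It read 8.72, 8.82 and 8.84 before and 4.87, 5.30 and 5.51 after stimulation, an 11.9-fold decrease (adjusted p = 1.36e-11). Of the 11 inhibitors and phosphatases, 8 fell in wild-type cells and 1 rose. The others that fell were Dgkz (-1.27), Ptpn6 (-1.10), Cd6 (-0.81), Ubash3a (-0.77), Pag1 (-0.68), Cd5 (-0.60) and Dgka (-0.37), so that inhibitors decreased beside the activating components. Ptpn22, a phosphatase acting on Lck and Zap70, rose by 0.42 ± 0.12 (adjusted p = 0.0116). Ptprc, the receptor phosphatase CD45, was at 0.06 ± 0.08 and the adaptor Sla at 0.21 ± 0.11. By its dimmer probe set Sla rose by 0.72 (limma's adjusted p over all probe sets 0.0153). For Ubash3a, a second probe set read 0.10 in place of -0.77, and the fall rests on the brighter one.

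Downstream, the branches differed gene by gene. Prkcq, which encodes PKC-theta, fell from 11.05, 11.13 and 11.06 to 9.43, 9.37 and 9.56, while Bcl10, an adaptor of the NF-kB branch, rose from 8.39, 8.85 and 8.68 to 9.70, 9.78 and 9.75. Rasgrp1, the diacylglycerol-responsive activator of Ras, fell by 1.00. Sos1, the other Ras activator, rose by 1.10 ± 0.19 from a wild-type mean of 3.33, under the median of the table, where sizes of change are uncertain. None of the 3 NFAT genes passed the test in wild-type cells: the changes were 0.04 for Nfatc1, -0.12 for Nfatc2 and -0.22 for Nfatc3, and Nfatc2 was dim.

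In Tsc1-deficient CD4 cells, 27 members fell on stimulation and 4 rose, with a median of -0.88, while 21.5% of all genes fell, 13.8% rose and 35.3% changed. Arrays did not overlap for 31 members, against 43.4% of all genes. Of the 38 members, 22 fell in both genotypes and 4 rose in both (Sh2d2a, Ptpn22, Bcl10 and Sos1). The shares of all genes that did so were not computed. They cannot exceed the shares in wild-type cells alone, 19.1% for a fall and 12.8% for a rise. By the brightest probe set of each gene, another 5 members (Cd2, Lcp2, Sla, Malt1 and Nfatc1) passed the test only in deficient cells. Fyn passed only in wild-type cells and 6 in neither (Cd247, Grb2, Plcg1, Ptprc, Nfatc2 and Nfatc3). The dimmer probe set of Sla went the other way, at 0.72 in wild-type and -0.04 in deficient cells (limma's adjusted p over all probe sets 0.0153 and 0.936). The pattern of Sla therefore depends on the probe set. Whether a response differed between the genotypes was tested separately and is given further on. The responses in deficient cells were -3.86 for Sit1, -2.25 for Ptpn6, -2.22 for Cd3g, -1.76 for Prkcq and -1.74 for Themis. Ptpn22, at 0.32, lost its call in deficient cells when any of 5 arrays was left out (adjusted p between 0.0853 and 0.242), and Sla, at -0.38, when unstimulated replicate 2 or stimulated replicate 3 was (0.0588 and 0.0667).

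**Figure D2:**
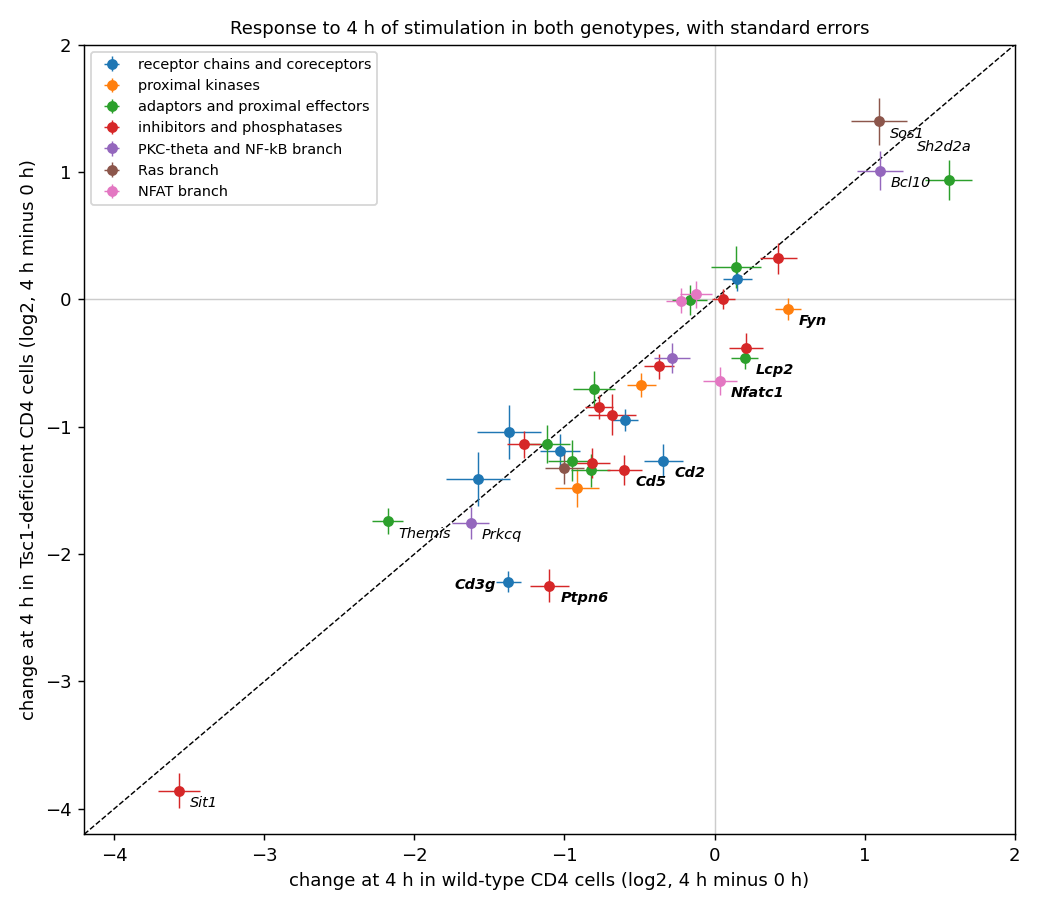
Response to 4 h of stimulation in wild-type (horizontal) and Tsc1-deficient CD4 cells (vertical), as log2 change, for the 38 members; bars are standard errors, bold names mark the 7 members whose responses differed, and the diagonal marks equal responses. Cd3g (-1.37 and -2.22) and Ptpn6 (-1.10 and -2.25) lie well below the diagonal, and Sit1 (-3.57 and -3.86) lies near it.

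In unstimulated CD4 cells, Cd8a alone among the 38 members passed the test between the genotypes, 2.63% of them, against 5.83% of all genes (3.96% higher and 1.87% lower), and the median member change was -0.01. The count was 4 with a variance trend, 4 without the 2 arrays with the widest Gapdh differences, 5 with array weights and 6 in a fit of the compared groups alone. Cd8a read 6.99, 6.11 and 6.16 on wild-type and 5.55, 5.59 and 5.59 on deficient arrays, a change of -0.84 ± 0.21 (adjusted p = 0.0268). The size rests in part on wild-type replicate 1: without it the change was -0.56 (adjusted p = 0.122), and the call was also lost without any 1 of the deficient arrays (the adjusted p over these 4 settings was 0.0692 to 0.122). The other 2 probe sets of Cd8a gave -1.02 and -1.15 (limma's adjusted p over all probe sets 0.167 and 0.0168, and 0.0517 for the brightest). For Cd247 the dimmest probe set was at -1.01 (0.0266), and the others were at 0.09, 0.04 and -0.56 (0.804, 0.983 and 0.109). Of the other CD8 lineage markers, Runx3 was lower, at -0.55 ± 0.10 (adjusted p = 0.00186), whereas Cd8b1 (-0.15) and Itgae (0.02) did not pass the test, and the markers' part in the Cd8a difference was not tested.

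Several inhibitors and the kinase Txk had non-overlapping arrays at rest without passing the test. Sit1 read 8.72, 8.82 and 8.84 in wild-type against 8.39, 8.38 and 8.33 in deficient cells (adjusted p = 0.0855). Pag1, the membrane adaptor that recruits Csk to lipid rafts, read 10.40, 10.34 and 10.28 against 9.84, 9.82 and 9.78 (adjusted p = 0.0702). Txk was at -0.42 (adjusted p = 0.118), and Sla was at 0.38 (adjusted p = 0.0652). In all, 18 members had arrays that did not overlap between the genotypes, 47.4% of the 38, against 28.6% of all genes.

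After 4 h of stimulation, 15 of the 38 members differed between the genotypes, 14 of them lower in deficient cells and 1 higher. Of all genes 9.45% differed, 5.59% higher and 3.86% lower, and of the genes above the table median 16.2% differed. The median member change was -0.27, against -0.00 over all genes. In each of the 15 the deficient arrays did not overlap the wild-type ones, and 20 members (52.6%) had arrays that did not overlap, against 23.9% of all genes. By role, 6 of 11 inhibitors were lower, 2 of 3 kinases, 2 of 7 receptor chains and coreceptors, 2 of 9 adaptors, 1 of 3 genes of the PKC-theta branch and 1 of 3 NFAT genes, and neither Ras activator differed.

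**Figure D3:**
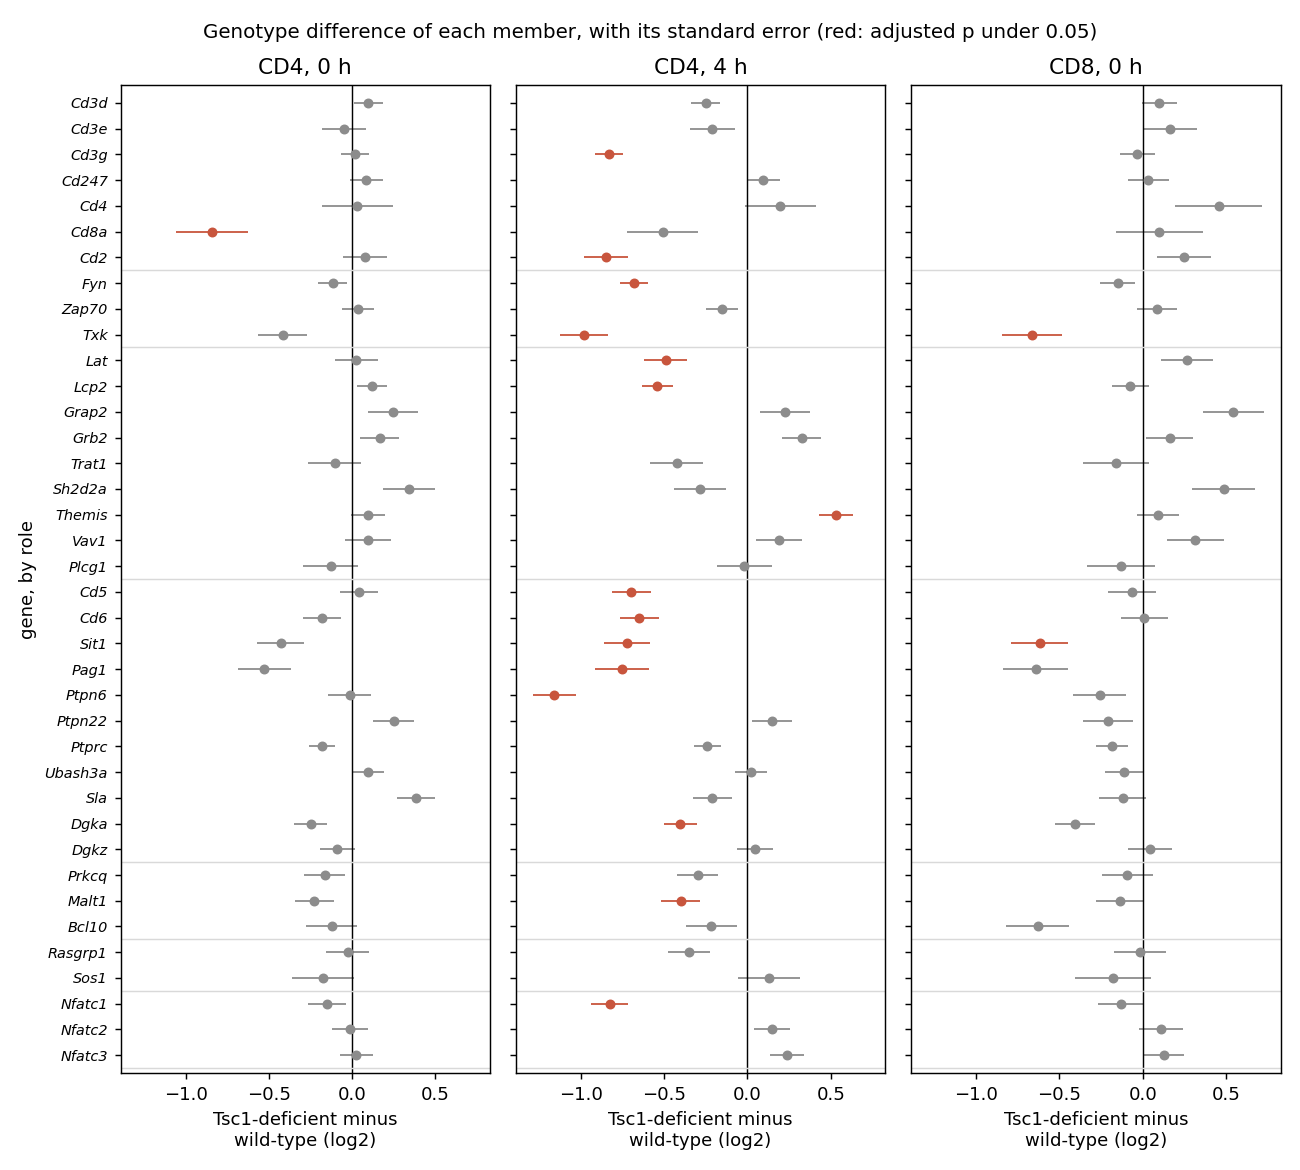
Difference between Tsc1-deficient and wild-type cells (log2 change with standard error) for each member in unstimulated CD4, stimulated CD4 and unstimulated CD8 cells; red marks an adjusted p under 0.05. The red points number 1, 15 and 2, and Themis in stimulated CD4 cells is the sole one above 0.

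Ptpn6, the SHP-1 phosphatase that dephosphorylates proximal components of the receptor pathway, had the greatest genotype difference among the members in stimulated CD4 cells. Its stimulated arrays read 8.28, 8.82 and 8.53 in wild-type against 7.19, 7.34 and 7.62 in deficient cells, a 2.24-fold lower signal (-1.16 ± 0.13, adjusted p = 3.06e-05). Before stimulation the genotypes overlapped, at 9.77, 9.59 and 9.57 against 9.62, 9.60 and 9.68. The other inhibitors that were lower in stimulated deficient cells are mostly cell-surface or membrane-anchored proteins. Cd5, a receptor that dampens signalling from the start of stimulation, read 10.22, 10.72 and 10.32 against 9.72, 9.73 and 9.72 (-0.70 ± 0.12, adjusted p = 0.000989). Its relative Cd6 read 9.34, 9.55 and 9.32 against 8.92, 8.69 and 8.64 (adjusted p = 0.00163).

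Sit1 and Pag1 were lower in stimulated deficient cells and lay below 0 at rest too. Sit1 was at -0.72 ± 0.14 after stimulation and -0.43 ± 0.14 before. Pag1 was at -0.75 ± 0.16 after and -0.53 ± 0.16 before, and stimulated deficient replicate 1 lay apart at 8.42, with the other deficient arrays at 9.13 and 9.17. Dgka, which converts diacylglycerol to phosphatidic acid and so limits Ras and PKC-theta, was at -0.40 ± 0.10 (adjusted p = 0.0143). That call was lost without stimulated wild-type replicate 1 or deficient replicate 2 (adjusted p = 0.0680 and 0.0690). Ptpn22, Ptprc, Ubash3a, Sla and Dgkz did not pass the test.

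Among receptor components, Cd3g read 10.33, 10.52 and 10.29 in stimulated wild-type and 9.56, 9.49 and 9.60 in stimulated deficient cells. Both groups were tight and far apart, at -0.83 ± 0.08 or 1.78-fold lower (adjusted p = 1.37e-05). The neighbouring CD3 genes did not pass the test: Cd3d read 11.79, 11.86 and 11.78 against 11.70, 11.43 and 11.54 (-0.25, adjusted p = 0.0859), and the Cd3e arrays, at 8.66, 8.85 and 8.73 against 8.92, 8.39 and 8.30, overlapped. Cd2, the adhesion receptor that binds CD48 in mice, read 10.56, 10.86 and 10.77 against 10.14, 9.49 and 10.01 (-0.85 ± 0.13, adjusted p = 0.000538).

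The 3 CD3 genes are neighbours on chromosome 9: in RefSeq (GRCm38.p6) the starts of Cd3g and Cd3d lie 1355 bp apart on opposite strands, and those of Cd3d and Cd3e 27825 bp apart. Their 250 bases upstream of the start are shown because these neighbours differed in response, and that of Ptpn6, on chromosome 6, because it had the largest difference by genotype. Each is written 5′ to 3′ on the gene's strand, and capitals mark the NFAT core, GGAAA or its reverse complement TTTCC.
Cd3g (chr9:44980432-44980681, minus strand): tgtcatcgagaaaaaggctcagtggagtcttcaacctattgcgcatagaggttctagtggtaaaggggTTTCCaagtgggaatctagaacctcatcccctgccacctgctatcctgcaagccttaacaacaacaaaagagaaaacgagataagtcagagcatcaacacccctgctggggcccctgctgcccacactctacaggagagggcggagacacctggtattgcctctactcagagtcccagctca
Cd3d (chr9:44981536-44981785, plus strand): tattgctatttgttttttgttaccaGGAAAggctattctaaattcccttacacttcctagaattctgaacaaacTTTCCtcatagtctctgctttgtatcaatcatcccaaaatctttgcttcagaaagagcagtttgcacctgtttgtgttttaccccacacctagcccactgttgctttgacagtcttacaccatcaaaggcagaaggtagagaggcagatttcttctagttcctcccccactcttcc
Cd3e (chr9:45009612-45009861, minus strand): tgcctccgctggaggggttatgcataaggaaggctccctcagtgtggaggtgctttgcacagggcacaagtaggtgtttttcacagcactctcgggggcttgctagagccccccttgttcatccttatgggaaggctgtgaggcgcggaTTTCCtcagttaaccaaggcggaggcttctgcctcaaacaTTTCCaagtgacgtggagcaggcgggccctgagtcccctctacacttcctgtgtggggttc
Ptpn6 (chr6:124738710-124738959, minus strand): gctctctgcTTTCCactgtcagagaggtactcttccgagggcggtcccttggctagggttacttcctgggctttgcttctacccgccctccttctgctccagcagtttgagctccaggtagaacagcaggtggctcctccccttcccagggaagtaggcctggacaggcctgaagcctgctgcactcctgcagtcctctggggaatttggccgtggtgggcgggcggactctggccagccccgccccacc
The core occurred 1 time upstream of Cd3g, 2 times each upstream of Cd3d and Cd3e and 1 time upstream of Ptpn6. So short a motif is common: 55.6% of all 32851 RefSeq windows of this length held it, and 67.4% of the 43 windows of 30 members. The TCF/LEF motif CTTTGA was found 2 times upstream of Cd3d and 0 times in the other 3 windows, against 13.8% of all windows and 23.3% of member windows. The RUNX motif TGTGGT and the AP-1 motif TGANTCA were found in none of the 4. They were held by 14% and 6.75% of all windows and by 11.6% and 0% of member windows. All motifs were searched on both strands. A match is a description of letters, not a measured binding site.

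Both kinases that differed were lower. Fyn read 10.72, 10.95 and 10.89 in stimulated wild-type and 10.14, 10.18 and 10.20 in stimulated deficient cells (-0.68 ± 0.09, adjusted p = 8.14e-05). Txk read 7.48, 7.11 and 7.09 against 5.94, 6.29 and 6.51, 1.97-fold lower (adjusted p = 0.000373). Zap70 was at -0.15 and did not pass the test.

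Adaptors moved in both directions. Lcp2, the SLP-76 scaffold, read 10.43, 10.69 and 10.49 in wild-type against 9.92, 10.06 and 10.01 in deficient cells (-0.54 ± 0.09, adjusted p = 0.00103). Lat read 10.39, 10.67 and 10.48 against 9.65, 10.14 and 10.28, without overlap. Its change of -0.49 ± 0.13 (adjusted p = 0.0223) depended on stimulated deficient replicate 1, the array with the widest Gapdh difference: without it the change was -0.30 (adjusted p = 0.110), and the call was also lost without wild-type replicate 2 or 3. Themis alone was higher in deficient cells, at 7.43, 7.19 and 7.52 against 6.87, 6.82 and 6.86 (0.53 ± 0.10, adjusted p = 0.00323), having fallen in both genotypes. Trat1 did not pass the test by its brightest probe set, at -0.43, whereas its second was at -0.65 (limma's adjusted p over all probe sets 0.174 and 0.00345).

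Of the branch genes, Nfatc1, the NFAT member whose transcription is itself induced by receptor signals, read 9.19, 9.31 and 9.14 in stimulated wild-type and 8.28, 8.25 and 8.63 in stimulated deficient cells (-0.83 ± 0.11, adjusted p = 0.000172). Malt1, the paracaspase of the NF-kB branch, was at -0.40 ± 0.12 (adjusted p = 0.0447), and lost its call when any of 5 of the 6 arrays was left out (adjusted p between 0.0754 and 0.186). Prkcq, Bcl10, Rasgrp1, Sos1, Nfatc2 and Nfatc3 did not pass the test.

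Whether stimulation acted differently in the 2 genotypes was asked by the difference of the responses, deficient minus wild-type. It passed the test for 7 members, each more negative in deficient cells, against 1.2% of all genes (0.661% more negative and 0.544% more positive). They were Ptpn6 (-1.15 ± 0.18, adjusted p = 0.00513), Cd2 (-0.93 ± 0.19, 0.0203), Cd3g (-0.84 ± 0.12, 0.00193), Cd5 (-0.74 ± 0.16, 0.0386), Nfatc1 (-0.68 ± 0.16, 0.0497), Lcp2 (-0.66 ± 0.13, 0.0168) and Fyn (-0.56 ± 0.12, 0.0323). The median over the 38 members was -0.17.

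**Figure D4:**
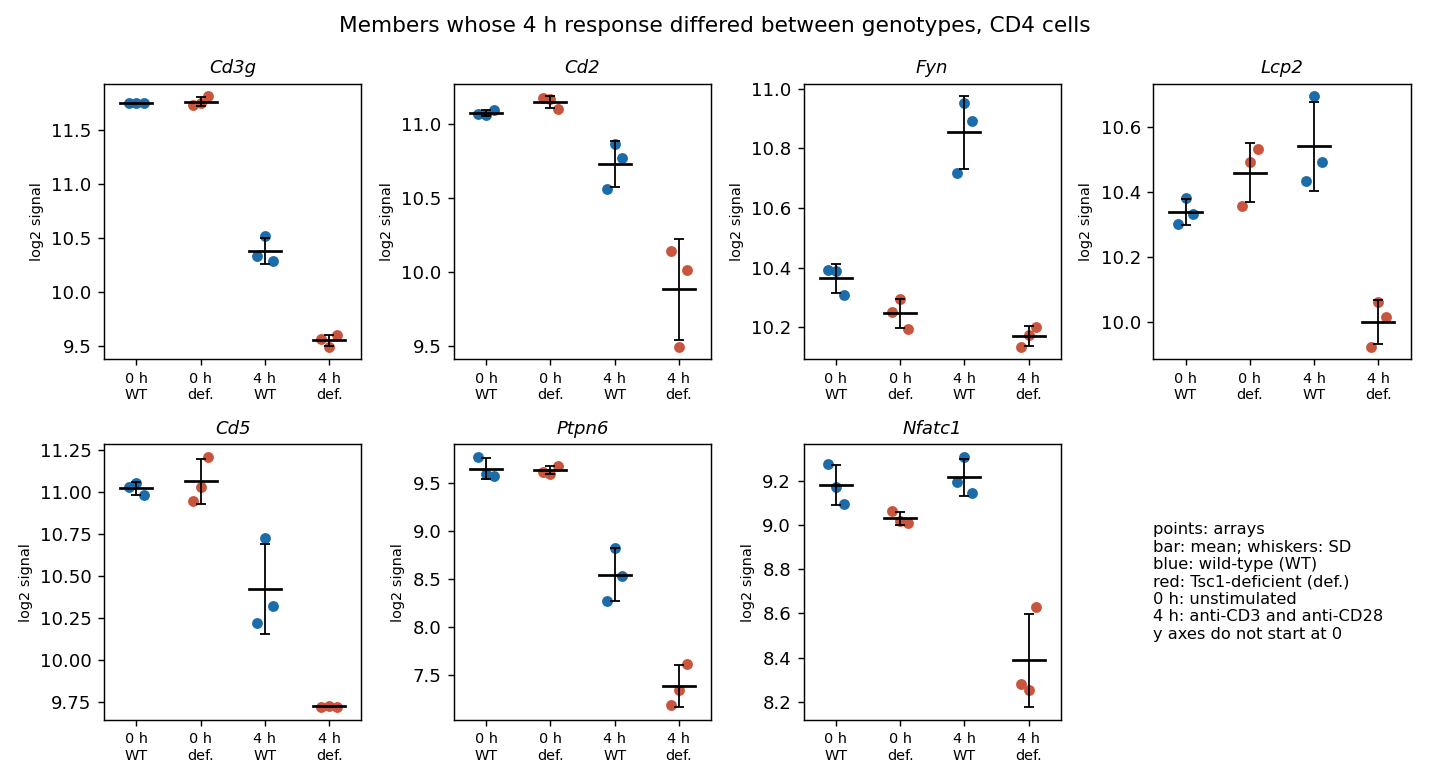
Log2 signal on each CD4 array (points), with the mean (bar) and SD (whiskers) of each group at 0 h and 4 h, for the 7 members whose response to stimulation differed between wild-type (blue) and Tsc1-deficient (red) cells. At 4 h the deficient arrays lie below each wild-type array for all 7 genes; the vertical axes do not start at 0.

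The changes within each genotype varied among the 7 genes, and these patterns were not compared by a test. Cd3g, Cd5 and Ptpn6 fell in wild-type cells and fell further in deficient ones. By its brighter probe set, Fyn rose in wild-type cells and was at -0.08 ± 0.09 in deficient ones. There the unstimulated arrays were at 10.25, 10.29 and 10.20 and the stimulated ones at 10.14, 10.18 and 10.20. Lcp2, Nfatc1 (by its brightest probe set) and Cd2 did not pass the test in wild-type cells, where their changes were 0.20, 0.04 and -0.34. They fell by 0.46, 0.64 and 1.27 in deficient ones. The wild-type Cd2 arrays still did not overlap, at 11.07, 11.06 and 11.10 before and 10.56, 10.86 and 10.77 after stimulation. Sit1, Pag1 and Txk, lower in stimulated deficient cells, are not among the 7.

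When each array was left out in turn, 2 to 6 members passed this test. Cd3g and Ptpn6 kept their call in each setting tried. Cd5 and Nfatc1 lost theirs for 11 of the 12 CD4 arrays left out (adjusted p between 0.0510 and 0.101, and between 0.0735 and 0.138), Fyn for 9 (0.0525 to 0.0992), Cd2 for 6 (0.0513 to 0.0683) and Lcp2 for 3 (0.0502 to 0.0534). Without the 2 arrays with the widest Gapdh difference, 8 members passed the test, all 7 among them.

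Probe sets were compared within genes, since 21 of the members have more than 1. For Nfatc1, which has 5, the third brightest gave -0.88 for the difference of responses, beside -0.68 for the brightest, and the dimmest pair gave -0.16 and -0.57. When p-values were adjusted over all probe sets, the second brightest passed the test (adjusted p = 0.0214), and the brightest and the third did not (0.098 and 0.0762). The second and the third also rose on stimulation in wild-type cells, by 0.61 and 0.88 beside 0.04, so whether wild-type cells raised Nfatc1 depends on the probe set. In deficient cells the third was at 0.00 on stimulation and the second fell by 0.39, and at rest the second was higher in deficient cells by 0.64 (adjusted p = 0.0105). Malt1 differed more: its brightest probe set gave -0.29 in stimulated wild-type cells and the other 2 gave 0.64 and 0.81. Under genotype after stimulation all 3 lay below 0, at -0.40, -0.66 and -0.96 (adjusted p over all probe sets 0.0707, 0.137 and 0.000777). For the difference of responses they gave -0.18, -0.63 and -1.03, of which only the dimmest passed the test (0.833, 0.604 and 0.0354). Fyn's second probe set, nearly as bright (mean 10.18, beside 10.28), gave -0.33 for the difference of responses, beside -0.56. Neither passed limma's test over all probe sets (adjusted p = 0.501 and 0.0569). On stimulation the second rose by 0.59 in wild-type cells and was at 0.27 in deficient ones (0.0643), where the brighter was at -0.08. For genotype after stimulation the second was lower too, at -0.43 (0.0219). The dimmer probe set of Lcp2 (mean 6.48) gave -0.53 for the difference of responses, beside -0.66 (limma's adjusted p over all probe sets 0.390 and 0.0354). Under genotype after stimulation it gave -0.46, beside -0.54 (0.0763 and 0.00212), so it had the same sign but passed in neither.

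**Figure D5:**
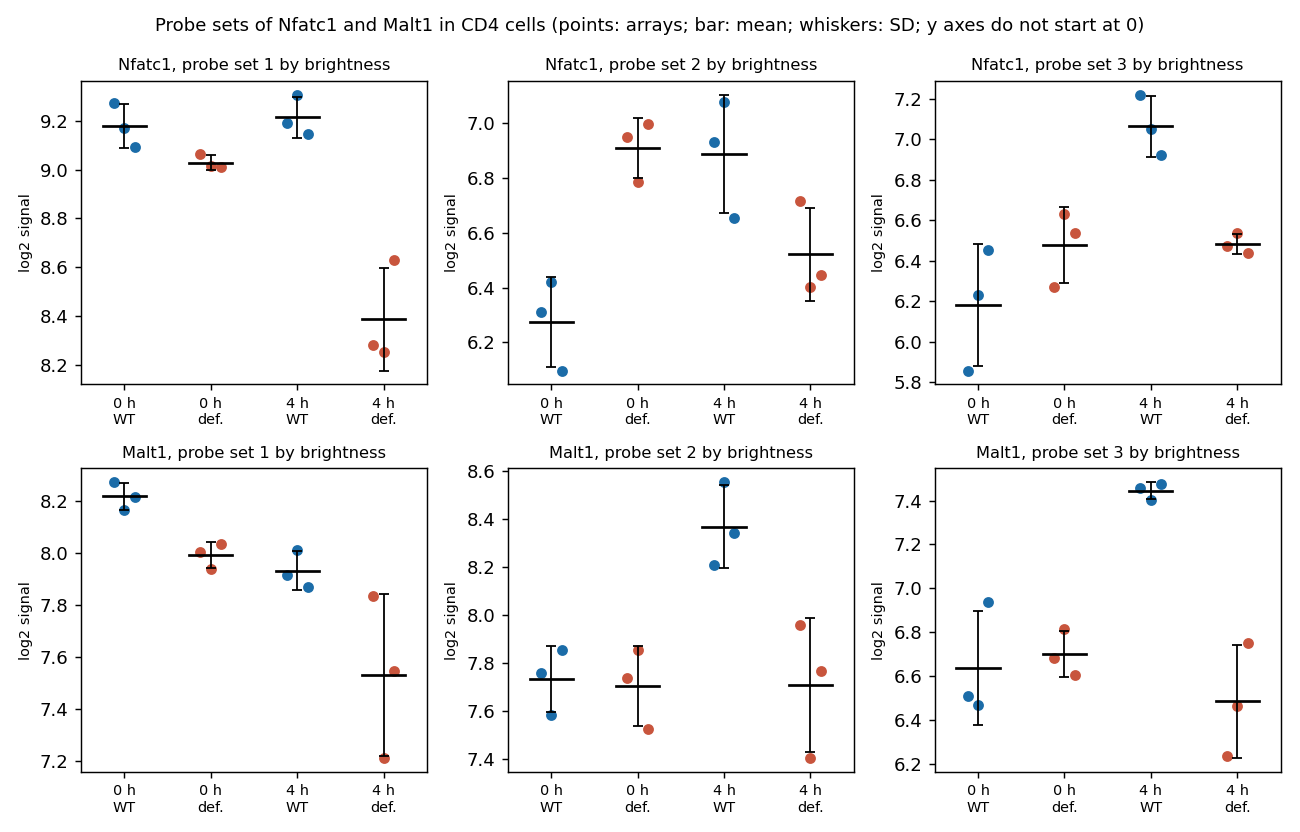
Log2 signal on each CD4 array (points), with the mean (bar) and SD (whiskers) of each group, by single-gene probe sets of Nfatc1 and Malt1, numbered by brightness and limited to the 3 brightest of each gene. On stimulation of wild-type cells the probe sets of Malt1 move to both sides of 0, at -0.29, 0.64 and 0.81; the vertical axes do not start at 0.

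In unstimulated CD8 cells, 2 of 38 members differed between the genotypes, both lower, against 5.82% of all genes (3.64% higher and 2.18% lower). Txk read 8.07 and 8.03 in wild-type against 7.56 and 7.20 in deficient cells (-0.67 ± 0.18, adjusted p = 0.037). Sit1 read 8.47 and 8.34 against 7.89 and 7.69 (-0.62 ± 0.17, adjusted p = 0.0419). With 2 arrays in a group these calls were fragile: leaving out an array lost the Txk call for 3 of 4 (adjusted p between 0.135 and 0.251) and the Sit1 call for each of the 4 (0.0579 to 0.250). Pag1, at 9.98 and 10.02 against 9.61 and 9.11, did not pass the test (-0.64, adjusted p = 0.0693), nor did Bcl10 (-0.63) and Dgka (-0.40). Over the 3 genotype comparisons, 14 of the 38 members lay below 0 each time, Txk, Sit1 and Pag1 among them, 7 lay above 0 each time and 17 were of mixed sign. This tally includes changes that did not pass the test. Its share over all genes was not computed, so no excess of either sign can be read from it. In CD8 cells, 22 members (57.9%) had arrays that did not overlap between the genotypes, against 46% of all genes.

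The lineages were compared at rest in each genotype. In wild-type cells 9 of 38 members differed between CD8 and CD4 cells, 3 higher and 6 lower in CD8, against 5.04% of all genes (2.47% higher and 2.57% lower). In deficient cells 11 differed, 3 higher and 8 lower, against 6.68% (3.08% higher and 3.6% lower). Arrays did not overlap between the lineages for 26 members in each genotype, against 36.9% of all genes in wild-type and 35.9% in deficient cells. Cd4 and Cd8a, which define the lineages, differed by -4.60 and 5.09 in the wild-type comparison and by -4.18 and 6.03 in the other. Trat1, an adaptor tied to the receptor complex, read 9.76, 9.81 and 9.82 in wild-type CD4 cells and 7.88 and 7.90 in CD8 cells, 3.75-fold lower (adjusted p = 2.38e-06). In deficient cells it was at -1.96 ± 0.18. Cd5 was lower in CD8 cells by 0.99 ± 0.13 and 1.10 ± 0.13, beyond the spread between arrays in each genotype.

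Smaller lineage differences appeared in Fyn (-0.42 in wild-type, -0.45 in deficient cells), Rasgrp1 (-0.52 and -0.51) and Themis (0.44 in each), which passed the test in both genotypes. Their other probe sets had the same signs. Fyn's second gave -0.19 and -0.17 (limma's adjusted p over all probe sets 0.565 and 0.544), and that of Rasgrp1 -0.62 and -0.22 (0.233 and 0.756). The dimmer ones of Themis gave 0.62 and 0.51 in wild-type cells (0.0307 and 0.191) and 0.24 and 0.12 in deficient cells (0.489 and 0.852). Cd6 (-0.51) and Ptpn22 (0.71) passed in wild-type cells, and Grap2 (0.78), Sit1 (-0.57), Sla (-0.49) and Cd247 (-0.44) in deficient cells. The difference of the lineage differences between the genotypes passed limma's test for 0 of 38 members, with 3 at an unadjusted p under 0.05, against 0.117% of all genes (0.0702% more positive and 0.0468% more negative). Each of these calls except those on Cd4, Cd8a, Trat1 and Cd5 was lost when at least 1 array was left out, and the number called then was 4 to 6 in wild-type and 4 to 10 in deficient cells.

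A further 100 genes of the pathway were listed, of which 83 were measured. Stimulation changed 60 of them in wild-type cells, 28 higher and 32 lower, and 59 in deficient cells, 26 higher and 33 lower. These are 72.3% and 71.1% of the 83, against 31.9% and 35.3% of all genes and 54.0% and 58.9% of those above the table median. Those that rose most in wild-type cells were Icos (2.25), a costimulatory receptor, the feedback inhibitors Spry1 (2.15) and Socs1 (1.95), the adaptor Sh3bp2 (1.85) and the NF-kB subunit Rel (1.80). Those that fell most were Arhgef6 (-2.28), Rac2 (-2.15), the calcium pump Atp2a3 (-1.96), Rhoh (-1.89) and Tespa1 (-1.74).

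By genotype, 14 of the 83 differed after stimulation, 6 higher and 8 lower in deficient cells, which is 16.9%, close to the 16.2% of genes above the table median (9.45% of all genes). The higher ones included the inhibitory receptor Pdcd1 (0.97 ± 0.24), the phosphatase Ubash3b (0.92 ± 0.20), Socs1 (0.80 ± 0.20), Gab3 (0.59) and Arhgef6 (0.55). Lower were Sh3bp2 (-1.22 ± 0.15), Tespa1 (-0.69), the costimulatory receptor Cd28 (-0.61), Sla2 (-0.50) and Rac2 (-0.45). The calls on Pdcd1, Socs1, Sla2 and Rac2 were lost without 4, 3, 1 and 1 of the 6 arrays.

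Sh3bp2, which binds Zap70 and Lat, had the most negative difference of responses among the 38 members and these 83 genes. It rose from 5.41, 5.55 and 5.23 to 7.29, 7.50 and 6.96 in wild-type cells and went from 5.58, 5.80 and 5.72 to 6.03, 5.81 and 6.25 in deficient ones, a difference of -1.52 ± 0.21 (adjusted p = 0.00137). Cd28, which the stimulating antibody engages, read 10.65, 10.84 and 10.93 before and 11.17, 11.55 and 11.26 after stimulation in wild-type cells, and 10.94, 11.02 and 10.97 before and 10.58, 10.71 and 10.87 after it in deficient ones. Its difference of responses was -0.78 ± 0.18 (adjusted p = 0.0421) and was lost for 10 of the 12 arrays left out (adjusted p between 0.0515 and 0.122).

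At rest, 5 of the 83 differed between the genotypes in CD4 cells, 6.02% against 5.83% of all genes and 9.9% of those above the table median. Ubash3b (0.79), the Tec kinase gene Tec (0.68), the calcineurin subunit Ppp3cc (0.65) and Slamf1 (0.50) were higher, and the adaptor Fyb (-0.40) was lower. In CD8 cells 8 differed, which is 9.64%, close to the 9.75% of genes above the table median (5.82% of all genes). Ubash3b (1.24), Gab3 (0.68), Slamf1 (0.65) and Orai3 (0.63) were higher and Dusp6 (-1.15), Fyb (-0.71), Rhoh (-0.55) and Spry2 lower. Spry2 lay below the table median on all 4 CD8 arrays, so no size is given for it. Ubash3b read 6.51 and 6.67 in wild-type against 7.69 and 7.96 in deficient CD8 cells. It therefore was higher in deficient cells in each of the 3 genotype comparisons, while its paralogue Ubash3a, a member, passed in none. Apart from Ppp3cc, each of these calls in CD4 cells was lost for at least 3 of the 6 arrays when 1 was left out; in CD8 cells those on Dusp6, Fyb and Orai3 were kept and the other 5 were not, and in a fit of the compared groups alone those on Fyb and Orai3 were lost too.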

How the data were processed

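The deposited values are log2 signals that the authors made with RMA in Partek 6.5, per the submitters' processing notes, and were used as deposited; no source used here names a genome build. Of 45141 probe sets, 28898 name 1 gene, and the brightest per gene over all 16 arrays was kept (17097 genes). Groups follow the labelled genotype, lineage and time. Differences were fitted with limma 3.58.1 in R 4.3.3, a mean per group in 1 model, in 9 comparisons. The alternatives were averaged probe sets, quantile normalization, a filter on dim genes, a variance trend, median centring, array weights, the compared groups alone, blocks of arrays, and leaving out the 2 arrays with wide Gapdh differences or each array in turn. All members are reported; values per array are given mainly for those that passed the test without overlap, and other pathway genes as the up to 5 greatest changes each way. Gene lists and members were chosen with earlier results of these data known. RefSeq promoters (GRCm38.p6) were read in Python 3.11.15, and figures drawn with matplotlib 3.10.9.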

Additional observations from a re-analysis of the deposited data

Results flagged for a closer look

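The response to 4 h of stimulation differed between Tsc1-deficient and wild-type CD4 cells, by limma's test of the difference itself with Benjamini-Hochberg adjustment over all genes, for 7 members and for 2 of the other pathway genes. For the members the differences were -1.15 ± 0.18 (SE) for Ptpn6, -0.93 ± 0.19 for Cd2, -0.84 ± 0.12 for Cd3g, -0.74 ± 0.16 for Cd5, -0.68 ± 0.16 for Nfatc1, -0.66 ± 0.13 for Lcp2 and -0.56 ± 0.12 for Fyn. For the other pathway genes they were -1.52 ± 0.21 for Sh3bp2 and -0.78 ± 0.18 for Cd28. In all 9 the stimulated deficient arrays lay below the stimulated wild-type arrays. Single outlying values were not sought gene by gene, since each group has 2 or 3 arrays; over all genes, limma's array weights were lowest on replicate 1 of the stimulated deficient CD4 cells, at 0.273, against 0.569 to 1.52 on the other arrays.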

How the results depend on the processing

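Stimulation counts moved little: the members that passed the test numbered 27 to 30 in wild-type and 29 to 31 in deficient cells over all alternatives, and 11 to 17 for genotype after stimulation (15 in the report). Among values that passed the test in at least 1 of the settings compared, one reversed: Malt1 on stimulation of wild-type cells became 0.39 (adjusted p = 0.0249) with averaged probe sets, because its dimmer probe sets rose. For genotype in unstimulated CD4 cells (1 in the report), the count was 2 with the filter on dim genes, 4 with the variance trend, 5 with array weights, 4 without the 2 arrays with wide Gapdh differences, 6 in the compared groups alone, and 0 to 1 leaving out an array. For genotype in CD8 cells (2 in the report) it was 4 with averaged probe sets, 4 with the filter, 5 with the trend, 1 without those 2 arrays, 0 in the compared groups alone, and 0 to 2 leaving out an array. For the difference of responses (7 in the report) it was 2 to 6 leaving out an array. For CD8 against CD4 it was 4 to 6 leaving out an array in wild-type cells (9 in the report), and in deficient cells (11 in the report) 7 without the 2 arrays, 7 in the compared groups alone and 4 to 10 leaving out an array. The cause of these shifts was not tested; leaving out an array reduces the samples, and in CD8 cells leaves a group of 1, assumed to vary like the others. The labels give no replicate numbers to pair by; with arrays of consecutive sample codes as random blocks (correlation 0.0304), 27, 31 and 7 members passed for stimulation in wild-type and deficient cells and for the difference of responses. Plcg1, Sos1 and Nfatc2 were too dim for small changes to be read.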
